A study of Mus musculus with 10 samples.

Results

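The 7 genes described here encode the Tgf-beta ligands (Tgfb1, Tgfb2 and Tgfb3), their signalling receptors (Tgfbr1 and Tgfbr2) and their co-receptors (Tgfbr3 and Eng), out of 18194 genes with a probe set of their own on the arrays. Members were selected by gene symbol, as every probe set annotated to exactly 1 of the 7 symbols, which gave 17 probe sets. The family itself was chosen on the signal of Tgfbr3, whose difference between the dissected fragments had been seen in these arrays, so the values of Tgfbr3 are given as a description without a test. The other 6 genes entered through their symbols, as members of a family set with earlier results of these arrays known.

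RNA came from mouse embryos at embryonic day 5.5, from matings labelled B6SJLF1×CerlP-GFP, in which a GFP reporter named for the Cer1 promoter lights up the anterior visceral endoderm (AVE), a signalling tissue of the outer layer. Every group carried that background and none was treated. The anterior distal fragment (Ad) held the fluorescent AVE with the epiblast beneath it, and the posterior proximal fragment (Pp) held proximal visceral endoderm and epiblast from the opposite side; intact embryos (whole embryo) formed the last group. Affymetrix MOE430A arrays carried Ad replicates 1 and 2, Pp replicates 1 and 2 and 1 whole embryo, while MOE430B arrays carried Ad replicates 3 and 4, Pp replicates 3 and 4 and 1 whole embryo. How many embryos entered a sample, and whether replicates came from separate embryos, is not stated, so a p-value here reflects array-to-array spread that may be technical. The fragments hold more than 1 cell layer, and in such bulk RNA fewer cells of a type and less RNA per cell cannot be told apart.

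Tgf-beta ligands are secreted in a latent complex and, once released, bring together the type II receptor Tgfbr2 and the type I receptor Tgfbr1, which phosphorylates Smad2 and Smad3. Tgfbr3, also called betaglycan, is a membrane proteoglycan without a kinase domain that presents Tgf-beta ligands, Tgfb2 above all, to Tgfbr2, and that also binds inhibin. Eng (endoglin) is a related co-receptor best known from endothelium. At the stage studied, the related ligand Nodal and its antagonists pattern the embryo.

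The AVE markers followed the dissection, which Cer1 itself had guided. Over the 7 markers Cer1, Dkk1, Gsc, Hesx1, Hhex, Lefty1 and Lhx1, of which 6 lay above the filter on low signal, the summed MOE430A intensity was 19774 and 15202 in the Ad arrays, 5329 and 5414 in the Pp arrays and 7582 in the whole embryo. On MOE430B only 1 of the 7 had a probe set, and Dkk1, a secreted Wnt antagonist, was at 631 and 272 in Ad, at 98.2 and 198 in Pp and at 212 in the whole embryo. Posterior epiblast markers were mixed on MOE430A. Mixl1 was at 612 and 493 in Ad and 976 and 940 in Pp, and Evx1 was also higher in Pp. Fgf8, below the filter, was at 621 and 574 in Ad and 162 and 173 in Pp, and Wnt3 was dim at 47.7 to 65.3. The 5 extraembryonic ectoderm markers (Bmp4, Cdx2, Elf5, Eomes and Esrrb) summed to 6622 and 6569 in Ad, to 6152 in Pp replicate 1 and 11328 in Pp replicate 2, and to 10380 in the whole embryo, so the Pp arrays of MOE430A differed from each other. Of the 7 markers of decidua, a maternal tissue, and uterine stroma, 5 were higher in the whole embryo than in every fragment on MOE430A, while Des and Pgr lay within the fragment range. Of the 4 on MOE430B, 2 were higher, Acta2 lay within the range and Dcn was lower. On MOE430A the prolactin family gene Prl8a2 ranged over 241 to 564 in fragments, against 6063 in the whole embryo. On MOE430B, Hand2 ranged over 110 to 144 in fragments, against 2223 in the whole embryo, and the progesterone receptor gene Pgr over 78.2 to 101, against 991.

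Betaglycan RNA, measured by probe set 1433795_at of MOE430B, was about 3 times as abundant in Ad as in Pp. Its intensity was 1751 and 1477 in the Ad arrays, 511 and 513 in the Pp arrays and 1664 in the whole embryo. Both Ad arrays lay far above both Pp arrays, and the whole embryo lay between the Ad arrays. The mean was 1614 ± 194 in Ad and 512 ± 1.64 in Pp (SD, n = 2 each), a ratio of 3.15. On the log2 scale, after a pseudocount had been added and arrays had been centred, the difference Ad minus Pp was 1.56 (SE 0.15), the 27th largest in size among the 13506 probe sets of MOE430B above the filter. This is the difference for which the gene was picked. The Ad mean was 0.970 of the whole-embryo value and the Pp mean 0.308 of it. In order of level, whole embryo and Ad came first without separating, and Pp followed below both. Leaving out the whole-embryo array or any 1 fragment array, or using any of the other settings tried, gave differences between 1.42 and 1.69.

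The other betaglycan probe set, 1425620_at on MOE430A, did not show this pattern. Its intensity was 1021 and 943 in Ad, 931 and 1009 in Pp and 946 in the whole embryo. The groups overlapped completely, and the means were 982 ± 54.7 in Ad and 970 ± 55.7 in Pp (SD, n = 2 each). The log2 difference Ad minus Pp was -0.05 (SE 0.07), and it was 0.01 when arrays were not centred. Both the probe set and the samples differ between these measurements, since the fragments on MOE430A are replicates 1 and 2 and those on MOE430B are replicates 3 and 4, so probe set and sample cannot be told apart. The array types were scaled separately, and intensities are not compared between them.

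**Figure D1:**
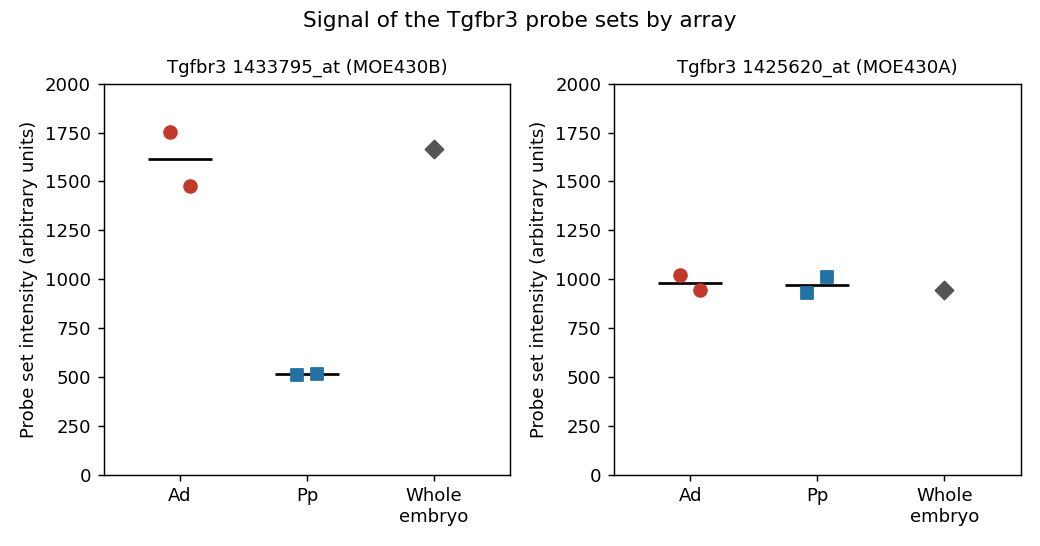
Probe set intensity (arbitrary units, linear axis from 0) of the betaglycan gene Tgfbr3 in Ad, Pp and whole-embryo arrays; each point is 1 array and each horizontal line the mean of 2. On MOE430B (left) both Ad arrays, at 1751 and 1477, lie above the Pp arrays at 511 and 513, while on MOE430A (right) all 5 arrays lie between 931 and 1021.

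Tissue markers on MOE430B are given beside the betaglycan values as a description. The 4 decidual and stromal markers on MOE430B, 2 of them above the filter, did not all move together. Hand2 and Pgr were higher in the whole embryo, Acta2 lay within the fragment range and Dcn was lower. The summed intensity of the 4 markers ranged over 254 to 303 in fragments, against 3251 in the whole embryo, and no value was at or below 1. Their part in the whole-embryo betaglycan signal was not tested. Few markers of the embryonic layers had a probe set on MOE430B. The 2 epiblast markers on that array type, Fgf5 and Utf1, summed to 4896 and 5138 in Ad, 3316 and 2819 in Pp and 2054 in the whole embryo. The visceral endoderm marker Ttr was at 9204 and 8219 in Ad, 6714 and 8184 in Pp and 6610 in the whole embryo. The extraembryonic ectoderm marker Esrrb was at 1122 and 1079 in Ad, 920 and 1298 in Pp and 1136 in the whole embryo. On MOE430A, with other replicates, the 5 epiblast markers summed to 14066 and 14779 in Ad and 13863 and 12314 in Pp. The part of these layers in the betaglycan difference was not tested.

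By the smallest distance between centred log2 profiles over the 5 arrays of MOE430B, the genes most like Tgfbr3 were Cd55, Smim14, Hipk2, Kirrel and Gm4850, with distances from 0.36 to 0.70. Cd55, which encodes an inhibitor of complement, came closest. Its intensity was 341 and 277 in Ad, 112 and 113 in Pp and 427 in the whole embryo. Hipk2, a nuclear kinase gene, was at 1122 and 1027 in Ad, 419 and 517 in Pp and 1025 in the whole embryo. On MOE430A, where the Tgfbr3 profile was flat, the nearest were the equally flat Oprl1, Mrpl21, Alkbh4, Otud5 and Ercc3, at distances from 0.01 to 0.02.

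Neither signalling receptor was called between the fragments, with 2 arrays in each group. The brightest Tgfbr1 probe set, 1420895_at, was at 1313 and 1428 in Ad, 1107 and 1070 in Pp and 1343 in the whole embryo. The Ad arrays did not overlap with the Pp arrays, and the whole embryo lay within the Ad range. The means were 1370 ± 81.3 in Ad and 1088 ± 26.3 in Pp (SD, n = 2 each), and the log2 difference was 0.21 (SE 0.07; limma adjusted p = 0.389). Differences under the settings tried ran from 0.15 to 0.28, with adjusted p never below 0.203. The other Tgfbr1 probe sets, 1420893_a_at and 1420894_at, lay below the filter signal on every array, at 259 to 284 and at 72.3 to 89.7.

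Tgfbr2 had 3 probe sets, all on MOE430A, and they disagreed. The one above the filter, 1425444_a_at, was at 1016 and 976 in Ad, 1059 and 1069 in Pp and 812 in the whole embryo. Both Ad arrays were slightly below both Pp arrays (log2 difference -0.15, SE 0.06; limma adjusted p = 0.454), and all 4 fragments were above the whole embryo. Fragments averaged 1030 ± 43.1 (SD, n = 4) against 812 in the single whole-embryo array, a log2 difference of 0.35 (SE 0.07; limma adjusted p = 0.0404). That call ended with no centring (adjusted p = 0.0808), with the stricter filter (0.0523), with the replicate number as a block (0.137), without Ad replicate 1 (0.145) or Ad replicate 2 (0.157), and with the crossed block added after seeing the data (0.0546).

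The probe set 1426397_at went the other way. It was at 365 and 395 in Ad, 297 and 266 in Pp and 1341 in the whole embryo. The whole-embryo value was 4.05 times the fragment mean, and every fragment lay far below it. The mean log2 value missed the filter, so the probe set was not tested in the chosen design. In the fit of all 22626 probe sets without a filter, the log2 difference fragments minus whole embryo was -1.40 (SE 0.07). It rests on the single whole-embryo array, so it is described without a test. All 4 fragment values lay below the filter signal of 464. The third probe set, 1422019_at, was dim everywhere, at 65.9 and 72.2 in Ad, 93.1 and 101 in Pp and 72.3 in the whole embryo. Within the fragments, 1426397_at was higher in both Ad arrays than in both Pp arrays, the reverse of 1425444_a_at and 1422019_at. None of these fragment differences was called, and the test without a filter gave adjusted p = 0.403, 0.525 and 0.438 for the 3 probe sets in that order. The files do not say which transcripts each probe set recognises.

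**Figure D2:**
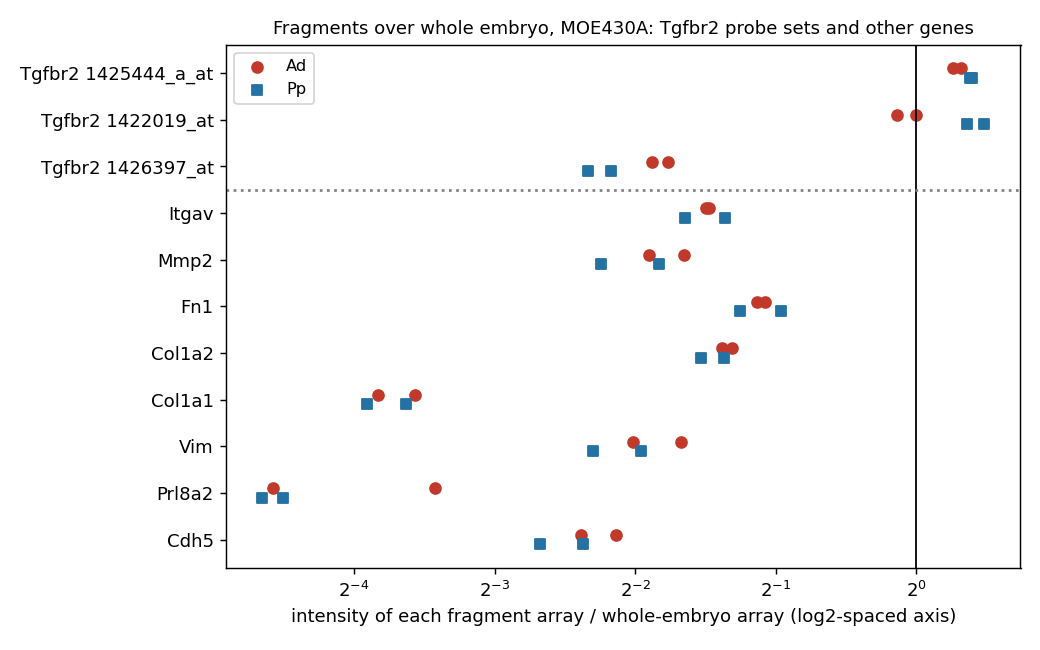
Ratio of each fragment array to the whole-embryo array of MOE430A (axis spaced by powers of 2; red circles Ad, blue squares Pp; the vertical line marks equality) for the Tgfbr2 probe sets above the dotted line and for 8 other genes below it. All 8 were picked among genes lower in the fragments. Listed markers nearer equality, such as Des, Pgr and Pecam1, are not drawn. Tgfbr2 probe set 1426397_at lies to the left, in the range of Mmp2 and Vim, while 1425444_a_at lies to the right of equality.

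On MOE430A, 5 of 7 stromal and all 6 endothelial markers were higher in the whole embryo than in every fragment, as 1426397_at was. So were 4 of 5 blood and macrophage markers, while Hba-a1 was lower. The share over all probe sets is not given here. The whole-embryo value was 4.05 times the fragment mean for 1426397_at and 5.20 times for Cdh5. For the other endothelial markers it was 1.18 (Pecam1) to 1.42 (Kdr) times. The 7 decidual and stromal markers, 6 of them above the filter, had sums of 5610 to 6448 in fragments, against 17872 in the whole embryo, a gap carried by Prl8a2, Vim and Acta2, while Des was at 1101 to 1274 in fragments, against 1136, and Pgr at 395 to 707, against 592. Vim, an intermediate filament gene of mesenchymal cells, ranged over 867 to 1340 in fragments, against 4275 in the whole embryo. The 6 endothelial markers, of which 2 lay above the filter, had sums of 2371 to 2506 in fragments, against 4263 in the whole embryo, with the endothelial cadherin gene Cdh5 at 212 to 308 against 1356. No stromal or endothelial marker had a value at or below 1 on MOE430A. Their part in the Tgfbr2 signal was not tested.

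Endoglin signal did not separate the fragments. Its brighter probe set, 1417271_a_at, was at 2064 and 1709 in Ad, 1785 and 1759 in Pp and 2209 in the whole embryo. The Pp arrays fell inside the Ad range, and the whole embryo was the highest of the 5. The log2 difference Ad minus Pp was 0.01 (SE 0.09; limma adjusted p = 0.984, 95% interval -0.22 to 0.23), and it turned to -0.11 without Ad replicate 1. The fainter probe set, 1432176_a_at, was at 518 and 493 in Ad, 556 and 469 in Pp and 614 in the whole embryo, again with overlapping fragments. Fragments minus whole embryo gave -0.17 and -0.11 for these probe sets, and neither was called (limma adjusted p = 0.350 and 0.473).

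Ligand signals were low. The probe set of Tgfb3, 1417455_at, just above the filter signal of 464, was at 577 and 487 in Ad, 473 and 510 in Pp and 533 in the whole embryo. Ad and Pp overlapped, with a log2 difference of 0.01 (SE 0.08; limma adjusted p = 0.980) whose sign changed with a larger pseudocount and without Ad replicate 1 or Pp replicate 1. Tgfb1 had 1 probe set on each array type. On MOE430B, 1445360_at was at 79.2 and 68.8 in Ad, 66.7 and 59.4 in Pp and 53.7 in the whole embryo, above the filter signal of 37.2. The deposited Ad values were above the Pp values by a small margin that was lost after centring (log2 difference 0.12, SE 0.15; limma adjusted p = 0.807). On MOE430A, 1420653_at lay below the filter, at 263 and 246 in Ad, 244 and 234 in Pp and 264 in the whole embryo.

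Tgfb2, the ligand with the greatest known need for betaglycan, had 4 probe sets and none above the filter. On MOE430A the brightest, 1423250_a_at, was at 401 and 418 in Ad, 458 and 396 in Pp and 415 in the whole embryo. Its deposited values overlapped, while after centring both Ad arrays lay below both Pp arrays (log2 difference -0.10), and the other MOE430A probe sets, 1450922_a_at and 1450923_at, ranged from 103 to 112 and from 62.0 to 77.9. On MOE430B, 1438303_at was at 33.5 and 22.9 in Ad, 14.8 and 27.8 in Pp and 19.7 in the whole embryo. All 4 lay below the filter signal on every array, and without a filter none was called between Ad and Pp (limma adjusted p = 0.740 to 0.810).

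**Figure D3:**
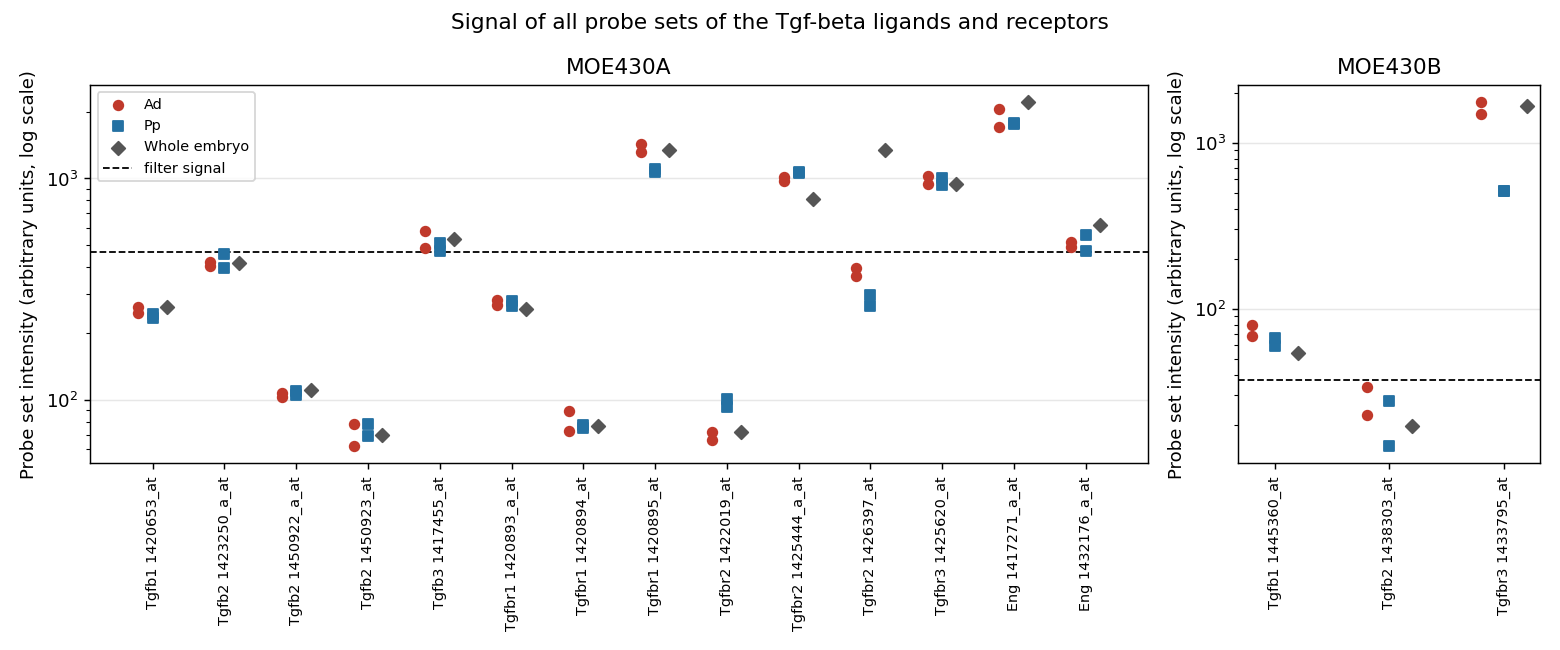
Probe set intensity (arbitrary units, log axis) of all 17 probe sets of the 7 genes on MOE430A (left) and MOE430B (right); each symbol is 1 array (Ad, Pp, whole embryo) and the dashed line is the filter signal, 464 and 37.2. Tgfbr3 1433795_at separates Ad from Pp most widely, and Tgfbr2 1426397_at separates the whole embryo from all 4 fragments.

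Over the family, 8 of 17 probe sets, from 6 of 7 genes, lay above the filter. Of the 6 tested there (Tgfbr3 left out), 0 were called in Ad against Pp by limma at an adjusted p under 0.05, and 1, Tgfbr1 1420895_at, had an unadjusted p under 0.05. The share called among all probe sets was 0.169% on MOE430A and 0.111% on MOE430B, so a count of 0 among 6 lies near the background. Among the 6 probe sets above the filter on MOE430A, Tgfbr3 1425620_at included, Ad and Pp did not overlap for 2 on the centred log2 scale. These were Tgfbr1 1420895_at and Tgfbr2 1425444_a_at, and the share over all probe sets was 45.4%. On MOE430B, where that share was 42.8%, Ad and Pp overlapped for Tgfb1 1445360_at. Tgfbr3 1433795_at, which did not overlap, was picked for its difference and is not counted. Against the whole embryo 1 of the 6 tested, with Tgfbr3 left out, was called, higher in fragments (Tgfbr2 1425444_a_at). Among all probe sets 4.6% were called higher and 5.19% lower in fragments on MOE430A, and 0.407% and 1.81% on MOE430B. The median log2 difference Ad minus Pp of the 6 probe sets above the filter on MOE430A, Tgfbr3 1425620_at included, was -0.02. Over all probe sets tested it was -0.03.

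**Figure D4:**
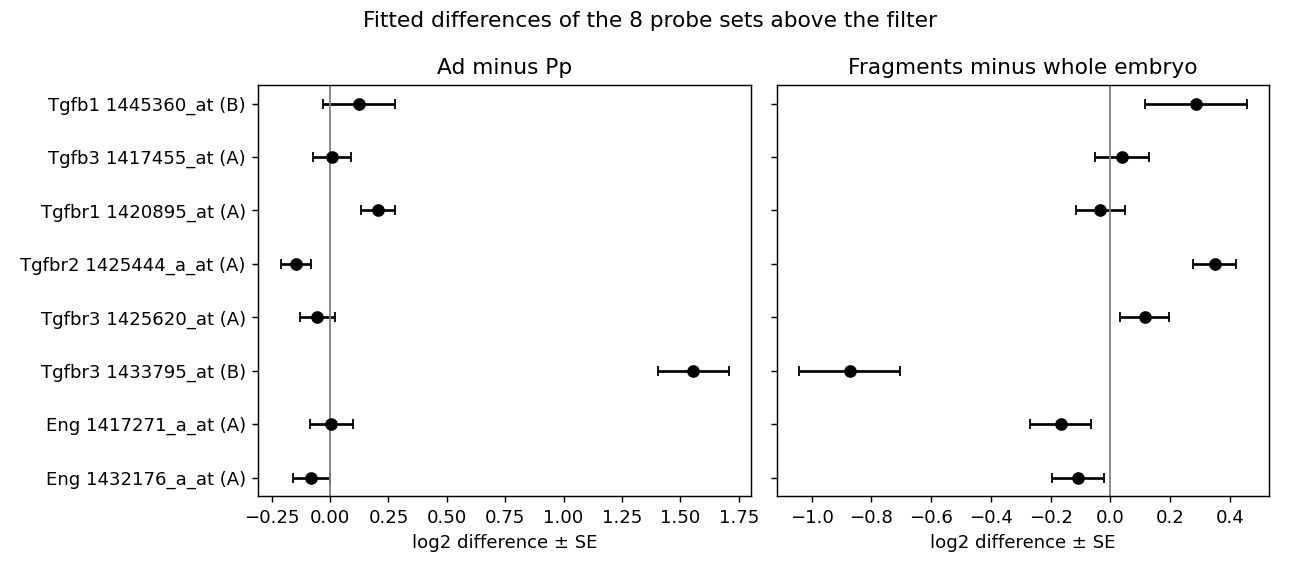
Fitted log2 differences (points) with their standard errors (bars) for the 8 probe sets above the filter, Ad minus Pp on the left and fragments minus whole embryo on the right; the letter gives the array type and the axes differ in range. Only Tgfbr3 on MOE430B lies beyond 1 in the left panel, at 1.56, and Tgfbr2 1425444_a_at is at 0.35 in the right panel.

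The rest of the pathway was examined through 61 listed symbols, of which 38 had a probe set above the filter on MOE430A and 14 on MOE430B, each gene by its brightest. In Ad against Pp, 0 of 38 and 0 of 14 were called by limma, and 5 and 2 had an unadjusted p under 0.05, near the shares of 11.7% and 10.4% over all probe sets. Against the whole embryo, 2 were called higher and 7 lower in fragments on MOE430A, and 1 higher and 0 lower on MOE430B. The shares over all probe sets stand above. The lists were written with earlier results of these arrays known. Neither these counts nor the medians below test a list against the background. Of the 7 lower, Col1a1 passed the filter only through its whole-embryo value.

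Genes for latency and activation of the ligand included 3 that were lower in fragments, of 7 measured on MOE430A. Itgav, the integrin chain that helps release latent Tgf-beta, ranged over 1413 to 1727 in fragments, against 4424 in the whole embryo (log2 difference -1.28, limma adjusted p = 0.00270). The matrix protease gene Mmp2 was at 960 to 1440 against 4535 (-1.63, adjusted p = 0.00301 in limma), and the latent ligand binding protein gene Ltbp3 at 428 to 486 against 747 (-0.40, adjusted p = 0.0389 in limma). The median of the 7 was -0.20, against 0.04 over all genes measured on MOE430A. The call of Ltbp3 ended with the replicate block and without Ad replicate 1 or 2. On MOE430B the only one measured was Itgav, by a dim probe set with a log2 difference of 0.12.

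Of 7 response genes on MOE430A with a fragment value above the filter signal, 3 were lower in fragments. Among all probe sets 5.19% were, a share that does not test a list written with earlier results known. Col1a1, a type I collagen gene, ranged over 290 to 369 in fragments, against 4360 in the whole embryo. Its fragments all lay below the filter signal of 464, so it is described without a test. Col1a2, the partner chain, was at 919 to 1071 against 2650 (-1.13, limma adjusted p = 0.00150). Fn1, fibronectin, had a log2 difference of -0.94 and Tgfbi, a matrix protein named for its induction by Tgf-beta, one of -0.61 (limma adjusted p = 0.00989 and 0.0104). Ccn2, a matricellular protein gene, was not called (-0.36, adjusted p = 0.199 in limma). The median of the 7 was -0.36. The calls of Fn1 and Tgfbi ended without Ad replicate 1 or 2 (adjusted p up to 0.0641 and 0.0773 in limma). Col1a1, Col1a2 and Fn1 are also products of stromal cells, some of whose markers were high in the whole embryo as given above, and the part of such cells was not tested. On MOE430B the only response gene measured, Tsc22d1, went the other way, at 659 to 746 in fragments and 275 in the whole embryo (1.31, limma adjusted p = 0.0119), while its MOE430A probe set had a log2 difference of -0.08. The MOE430B call ended without Ad replicate 3 or 4 (adjusted p up to 0.0809 in limma).

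Among transducers, Trim33, a nuclear Smad partner, was the 1 called of 5 on MOE430A, higher in fragments at 3468 to 4358 against 2827 (0.57, limma adjusted p = 0.0343). Its MOE430B probe set leaned the same way without a call (0.44, adjusted p = 0.373 in limma). Of the 6 transducers measured on MOE430B the brightest were Smad3, at 532 to 716 in fragments and 844 in the whole embryo, and Trim33. Among inhibitors, the corepressor gene Tgif1 was the 1 called of 10 on MOE430A, at 1818 to 2289 against 1188 (0.77, limma adjusted p = 0.0189). Both calls ended without Ad replicate 1 or 2, and that of Trim33 also with no centring, with no filter and with the crossed block added after seeing the data.

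Between the fragments, Ad and Pp did not overlap for 16 of 38 pathway genes on MOE430A and 6 of 14 on MOE430B, 42.1% and 42.9%, against 45.4% and 42.8% of all probe sets. The 3 with the largest differences on MOE430A are given, although none was called; they were chosen after their values were seen. Smad7, the feedback inhibitor that Tgf-beta and Nodal signals induce, was at 804 and 805 in Ad and 1038 and 1201 in Pp on MOE430A, with 1242 in the whole embryo. On MOE430B it was at 349 and 395 in Ad, 623 and 621 in Pp and 590 in the whole embryo. Both array types thus had Ad below Pp, by log2 differences of -0.44 and -0.80 (limma adjusted p = 0.190 and 0.215). Acvr1b, a type I receptor gene for activin and Nodal, was at 1652 and 1414 in Ad, 986 and 968 in Pp and 1117 in the whole embryo (0.47, limma adjusted p = 0.164). Ccn2 was at 375 and 560 in Ad, 864 and 751 in Pp and 926 in the whole embryo (-0.64, limma adjusted p = 0.230). On MOE430A all 3 passed without either Pp array (limma adjusted p from 0.00213 to 0.0418), where the calls over all probe sets went to 811 and 505. Without either Ad array none passed (limma adjusted p from 0.451 to 0.926). Each of those fits took its spread from the Ad pair or the Pp pair alone, whichever was left whole. Smurf2, a ubiquitin ligase that acts with Smad7, was the brightest inhibitor on MOE430B and lay at 1656 and 1493 in Ad and 1438 and 1282 in Pp (0.13, limma adjusted p = 0.788).

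Partners of betaglycan gave no call. Acvr1b, given above, is on this list and had the largest Ad minus Pp difference among the 8 measured on MOE430A, at 0.47. The brightest of the 8 were Arrb2, the beta-arrestin that binds the cytoplasmic tail of betaglycan, and the activin subunit gene Inhbb. Arrb2 was at 1499 and 1519 in Ad, 1417 and 1462 in Pp and 1754 in the whole embryo. Inhbb was at 1521 and 1383 in Ad, 1218 and 1277 in Pp and 1421 in the whole embryo (log2 difference Ad minus Pp 0.12, limma adjusted p = 0.570). On MOE430B Inhba, dim at 46.1 to 86.9 in fragments, against 59.5 in the whole embryo, was the only partner measured.

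**Figure D5:**
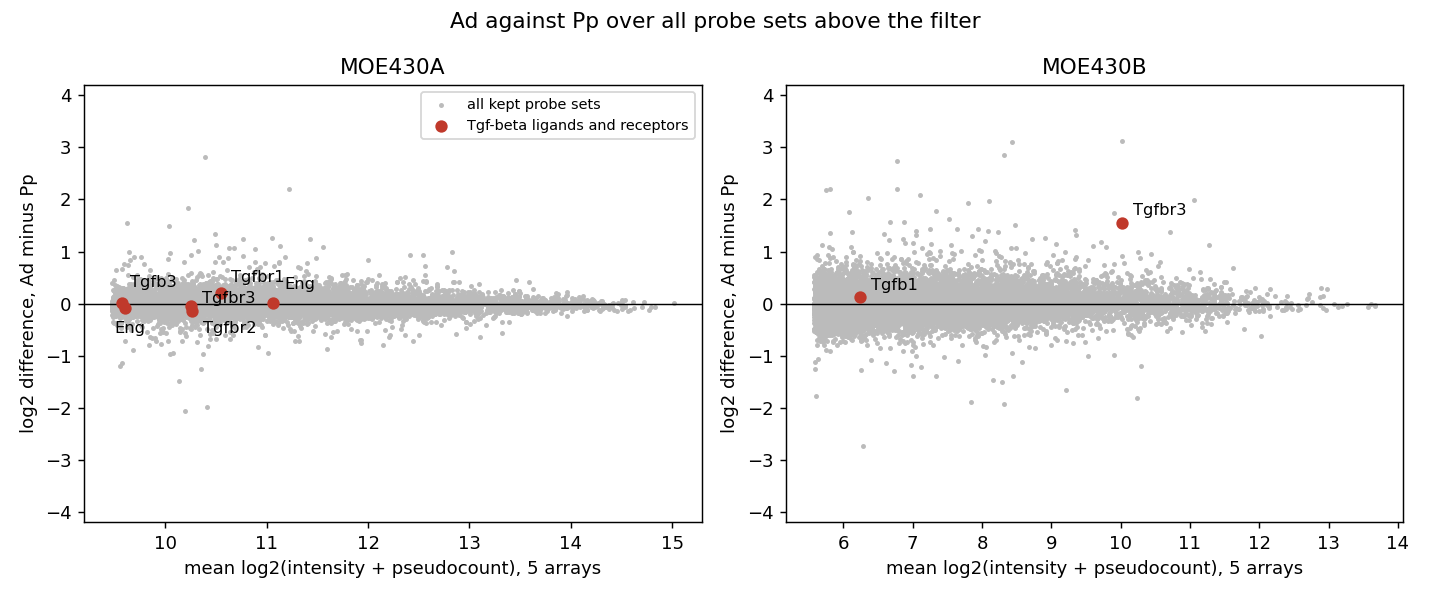
Log2 difference Ad minus Pp (vertical axis) against the mean log2 intensity with pseudocount (horizontal axis) for all probe sets above the filter (grey, 13575 on MOE430A and 13506 on MOE430B) with the Tgf-beta ligands and receptors in red. Tgfbr3 on MOE430B is at 1.56, while the 6 red points on MOE430A lie between -0.15 and 0.21.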

How the data were processed

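The deposited values are linear probe set intensity. For these the submitters' processing notes name MAS5, with no version or scaling target, and the labels' protocols describe a linear amplification of the RNA. Array medians were 591 to 645 on MOE430A and 56.7 to 61.0 on MOE430B. Each array type was fitted alone with limma 3.58.1 in R 4.3.3: 64 control probe sets were left out, a pseudocount at the 20th percentile (247 and 10.5) was added before log2, probe sets with a mean log2 value above the 40th percentile were kept, and arrays were centred on their median. The model had 3 groups and 2 residual degrees of freedom, with the single whole-embryo array assumed to vary like the fragments. Tests were two-sided with Benjamini-Hochberg adjustment over all kept probe sets at 0.05. The fit was tested on simulated data. An intensity has no count behind it, and the number of arrays limits the precision. Gene names are those of the platform annotation, and identifiers of all 7 genes matched RefSeq symbols of GRCm38.p6. Named pathway genes are those called, the 2 brightest of a list without calls, and those marked as chosen later. Members and lists were chosen with earlier results of these data known. Alternatives were other pseudocounts, filters and normalizations, an intensity trend, the replicate number as a block, and leaving out arrays. Replicates with equal numbers did not deviate together (correlation of deviations -0.24 on MOE430A and -0.04 on MOE430B), so the block is an alternative only.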

Additional observations from a re-analysis of the deposited data

How the results depend on the processing

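Tgfbr3 1433795_at kept its sign in Ad minus Pp under all 13 alternatives (1.42 to 1.69) and in fragments minus whole embryo under all 12 (-0.94 to -0.79). The gene was picked for its Ad minus Pp difference in these same arrays, so the kept sign there is no support for it. No alternative called a tested member between Ad and Pp. Signs changed near 0: Tgfbr3 1425620_at Ad minus Pp was 0.014 with no centring, Tgfb1 1420653_at Ad minus Pp 0.0055 with no filter (-0.023 otherwise), Tgfb3 Ad minus Pp was -0.00015 with the larger pseudocount and ran from -0.068 (without Ad replicate 1) to 0.082 when 1 array was left out, Tgfb3 fragments minus whole embryo was -0.042 with no centring and -0.00235 under quantile normalization, and Eng 1417271_a_at Ad minus Pp ran from -0.11 (without Ad replicate 1) to 0.12 when 1 array was left out. Of the 13 alternatives for Tgfbr2 1425444_a_at against the whole embryo, 7 kept the call (adjusted p 0.00771 to 0.157 in limma over all 13). Of the pathway calls, those of Itgav, Mmp2 and Col1a2 held under all 13 alternatives.

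Counts of all calls moved more. In Ad minus Pp on MOE430A, 23 calls became 46 with no centring. On MOE430B, 15 calls became 30 with an intensity trend, 30 with the larger pseudocount, 2 with no filter, 26 with the stricter filter and 29 with the replicate block. In fragments minus whole embryo, 1328 calls on MOE430A became 605 with the replicate block, and 299 on MOE430B became 196 with no filter. With no centring the MOE430A split was 338 higher and 966 lower, against 624 and 704. Pairing the MOE430A replicates crosswise, chosen after seeing the data, gave 47 calls in Ad minus Pp. Leaving out 1 fragment array gave 1 to 811 and 0 to 131 calls in Ad minus Pp on MOE430A and MOE430B, and 274 to 3493 and 101 to 1180 in fragments minus whole embryo, lowest when an Ad array was left out and highest when a Pp array was. A fit without an Ad array takes its spread from the Pp pair alone, and a fit without a Pp array from the Ad pair alone. Counts and calls that changed when 1 array was left out thus also depend on which pair set the spread. Other causes were not tested. Signals below the filter, as for all probe sets of Tgfb2, limit what these arrays can show.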
